A study of Mus musculus with 6 samples.

Results

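Genes for 9 enzymes or enzyme subunits of the tricarboxylic acid (TCA) cycle were followed in RNA-seq libraries of mouse group 3 innate lymphoid cells (ILC3s). They were Cs, Idh3a, Idh3b, Idh3g, Ogdh, Dlst, Suclg1, Fh1 and Mdh2. All 9 were found by symbol among the 55401 gene identifiers of the deposited count table, and all 9 passed the filter on low counts. The cells were taken from lamina propria of the small intestine of wild-type pups, and 3 libraries are labelled Vehicle and 3 PEox, each a pretreatment. The labels leave PEox unexpanded and give no dose, duration, age, pooling or route. No label ties a library to its own animal, so the p-values cover the variation among these libraries alone, and that variation may be technical.

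The TCA cycle runs in the mitochondrial matrix, where it oxidises acetyl groups from pyruvate, fatty acids and amino acids to carbon dioxide and hands the electrons to the respiratory chain as NADH and FADH2. It also supplies citrate for lipid synthesis, 2-oxoglutarate for dioxygenases and glutamate, and oxaloacetate for aspartate. Activated lymphocytes, ILC3s among them, are known to engage both glycolysis and mitochondrial respiration. Citrate synthase (Cs) joins acetyl-CoA to oxaloacetate. The NAD-dependent isocitrate dehydrogenase has a catalytic subunit (Idh3a) and companion subunits (Idh3b, Idh3g), and it makes 2-oxoglutarate. The 2-oxoglutarate dehydrogenase complex consists of a decarboxylase (Ogdh), a succinyltransferase core (Dlst) and a dihydrolipoamide dehydrogenase (Dld) shared with other complexes. Succinyl-CoA ligase pairs an alpha subunit (Suclg1) with a beta subunit that uses either GDP (Suclg2) or ADP (Sucla2). Fumarase (Fh1) and mitochondrial malate dehydrogenase (Mdh2) complete the return to oxaloacetate.

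Total counts per library lay between 56252806 and 66849230. Counts of the 9 genes ran from 3357, for Fh1, to 26170, for Mdh2. The protocol text names sorted epithelial cells, whereas the cell type label names ILC3s. The 14 ILC3 markers summed to between 15200 and 15380 CPM (counts scaled to library depth with TMM factors) in vehicle and between 8650 and 8793 in PEox, while 12 epithelial markers summed to between 97.6 and 111.1 and between 59.55 and 66.08. Of the ILC3 markers 8 were called lower and 2 higher. Il22, at a mean of 6724 CPM in vehicle and 2513 in PEox, made up most of the fall in their sum. The epithelial markers included 2 with no count in any vehicle library and 4 with none in any PEox library. Most of both epithelial sums came from Epcam, Krt8 and Krt18, all called lower. Their means in vehicle and PEox were 52.15 and 31.95 CPM (Epcam), 31.07 and 15.53 (Krt8), and 19.45 and 13.58 (Krt18). The summed markers of other cells differed between the groups. B cell markers (5 genes) summed to between 246.8 and 266.8 CPM in vehicle and between 33.28 and 40.19 in PEox, T cell markers (5) to between 102.2 and 116.5 and between 42.12 and 53.95, and mast cell and basophil markers (5) to between 37.57 and 40.22 and between 5.346 and 11.07. For 6 myeloid markers the sums were 157.7 to 166.5 and 80.41 to 106.5 CPM, for 6 erythroid markers 2754 to 2801 and 5121 to 5807, and for 8 genes of dividing cells 662.4 to 695.8 and 184.7 to 192.7. Of the myeloid markers Lyz2, at a mean of 110.5 CPM in vehicle and 50.96 in PEox, made up most of the fall, and 4 of the 6 did not pass. Among the mast cell and basophil markers 3 were called lower and 2 did not pass. Cpa3, at a mean of 25.96 CPM in vehicle and 6.662 in PEox, made up most of both sums. Among the erythroid markers 5 were called higher and Slc4a1 did not pass (edgeR adjusted p = 0.421). Of the T cell markers 4 were lower and Cd4 was higher (log2 fold change 0.80, edgeR adjusted p = 0.0363). The part of these cells in the changes described next was not tested, and in bulk RNA fewer cells of a type and less RNA per cell cannot be told apart.

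The comparison of PEox with vehicle split the cycle. Ogdh and Cs rose, Suclg1, Idh3a, Idh3g and Fh1 fell, and Mdh2, Idh3b and Dlst did not pass the test (edgeR quasi-likelihood test, Benjamini-Hochberg adjustment over 18253 genes, threshold 0.05). Thus 6 of the 9 genes were called, 2 higher and 4 lower, and 37.1% of all tested genes were called, 18.3% higher and 18.8% lower. The latter share includes many genes of low count. A separate fit was limited to genes with at least 5 CPM in 3 libraries, a background nearer to the 9 in level. It called 6507 of 10743 genes, 3322 higher and 3185 lower. Of the 9 genes it called the same 6 and also Mdh2, lower (edgeR adjusted p = 0.0122). Most genes of that background were thus called, in both directions, as were most of the 9. The difference between the 9 genes and that background was not tested. The median log2 fold change of the 9 genes was -0.24, and that of all tested genes was near 0, at 0.0007.

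Ogdh, which encodes the decarboxylase that opens the 2-oxoglutarate dehydrogenase reaction, showed the widest difference of the 9. It measured 164.5, 182.8 and 187.3 CPM in vehicle libraries 1 to 3 and 329.0, 335.0 and 316.2 CPM in PEox libraries 1 to 3. All PEox libraries lay far above all vehicle libraries. The fitted change was a 1.83-fold rise, 0.87 in log2 units with SE 0.06 (adjusted p = 1.93e-05, edgeR). Cs, the enzyme that admits acetyl-CoA to the cycle, measured 186.3, 193.3 and 186.9 CPM in vehicle and 234.4, 229.7 and 232.5 CPM in PEox. The groups did not overlap, and the libraries within each lay close together. The rise was 1.23-fold, 0.30 in log2 units with SE 0.04 (adjusted p = 0.000998, edgeR).

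Suclg1, the alpha subunit common to both forms of succinyl-CoA ligase, measured 285.2, 285.4 and 287.4 CPM in vehicle and 196.1, 203.3 and 167.9 CPM in PEox. The vehicle libraries were almost equal, PEox library 3 was the lowest of all, and the groups did not overlap. The log2 fold change was -0.60 with SE 0.07 (adjusted p = 0.000355, edgeR). Idh3a, the catalytic subunit of the NAD-dependent isocitrate dehydrogenase, measured 124.4, 121.5 and 115.8 CPM in vehicle and 80.1, 79.93 and 86.13 CPM in PEox. Every PEox library was lower than every vehicle library, by a log2 fold change of -0.55 with SE 0.06 (adjusted p = 0.000225, edgeR). Idh3g, a companion subunit of the same enzyme, measured 293.0, 277.7 and 286.6 CPM in vehicle and 215.0, 226.4 and 209.7 CPM in PEox, again without overlap. Its log2 fold change was -0.40 with SE 0.05 (adjusted p = 0.000405, edgeR). Fh1, the fumarase gene, was the least abundant of the 9 per length in both groups. It measured 77.65, 74.92 and 80.94 CPM in vehicle and 64.81, 56.79 and 60.98 CPM in PEox, and its log2 fold change was -0.36 with SE 0.07 (adjusted p = 0.00632, edgeR).

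The other genes did not pass. Mdh2, which regenerates oxaloacetate, measured 412.0, 427.7 and 400.6 CPM in vehicle and 399.8, 307.4 and 345.0 CPM in PEox. PEox library 1 lay beside the vehicle libraries and PEox library 2 far below them, so the PEox spread was wide. The log2 fold change was -0.24 with SE 0.09 (adjusted p = 0.0681, edgeR). Without PEox library 1 it was -0.34 and passed (edgeR adjusted p = 0.00594), whereas without PEox library 2 it was -0.16 (edgeR adjusted p = 0.157) and with library size scaling -0.10 (edgeR adjusted p = 0.428). It passed with DESeq2 (adjusted p = 0.0186), limma-voom (adjusted p = 0.0426) and a stricter low count filter (edgeR adjusted p = 0.0122). Idh3b, the other companion subunit of isocitrate dehydrogenase, measured 176.3, 162.8 and 170.2 CPM in vehicle and 161.0, 163.0 and 149.5 CPM in PEox. It was the single gene of the 9 whose groups overlapped, and its log2 fold change was -0.11 with SE 0.06 (adjusted p = 0.202, edgeR), or -0.066 without PEox library 3. Dlst, the core of the 2-oxoglutarate dehydrogenase complex, measured 100.1, 99.39 and 85.82 CPM in vehicle and 100.9, 111.3 and 108.4 CPM in PEox. PEox library 1 stood just above the highest vehicle library, and the log2 fold change was 0.17 with SE 0.08 (adjusted p = 0.135, edgeR), or 0.096 without vehicle library 3. The groups thus did not overlap for 8 of the 9 genes, as for 50.6% of all tested genes.

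**Figure D1:**
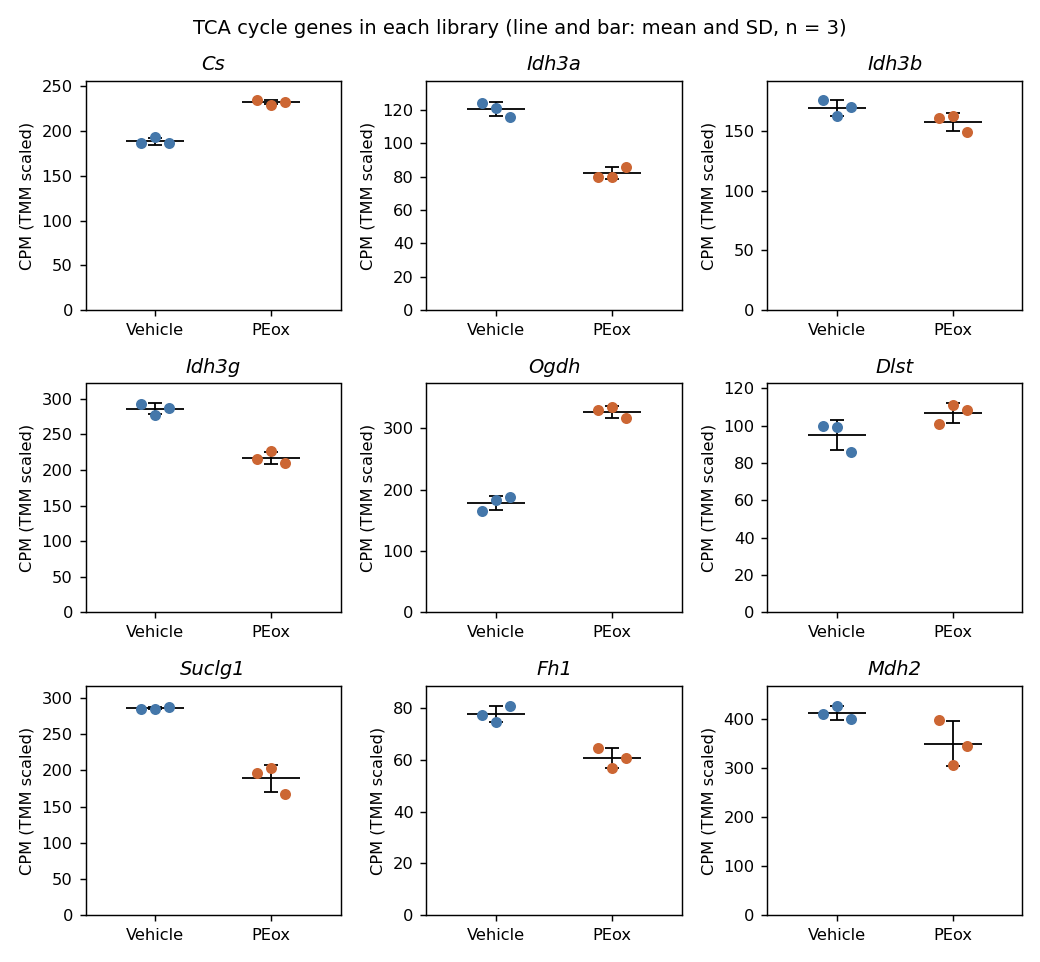
Levels of the 9 TCA cycle genes in CPM (vertical axes, from 0) in each vehicle and PEox library (points), with the group mean (line) and SD (bar, n = 3). Ogdh and Cs stand higher in every PEox library, Suclg1, Idh3a, Idh3g and Fh1 lower in every one, and Idh3b is the gene whose groups overlap.

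Levels were compared between genes per kilobase of exon (CPM per kb). In vehicle the order was Mdh2 at 284 ± 9.3 (SD, n = 3), Idh3g at 215 ± 5.8, Suclg1 at 188 ± 0.79, Idh3b at 105 ± 4.2, Cs at 64.5 ± 1.3, Idh3a at 46.7 ± 1.7, Ogdh at 40.1 ± 2.7, Dlst at 34.4 ± 2.9 and Fh1 at 29.5 ± 1.1 CPM per kb. No pair of neighbours in that order overlapped between libraries. In PEox the first 5 places were the same, with Mdh2 at 241 ± 32 and Cs at 79.4 ± 0.81 CPM per kb (SD, n = 3). Below them Ogdh, at 73.4 ± 2.2, had passed Idh3a, at 31.8 ± 1.4, and so had Dlst, at 38.7 ± 1.9 CPM per kb. The distance between the most and the least abundant gene stayed wide, with Fh1 at 23.1 ± 1.5 CPM per kb in PEox. The summed level of the 9 genes was 1819, 1826 and 1802 CPM in vehicle libraries 1 to 3 and 1781, 1713 and 1676 CPM in PEox libraries 1 to 3, so that the sums lay closer together than the levels of single called genes. The direction of the sum rests on the TMM factors. Unscaled counts of the 9 summed to 115580, 103550 and 113311 in vehicle and 104788, 101248 and 101458 in PEox. Total counts were 66849230, 59524577 and 65747460 in vehicle and 56252806, 56542297 and 57532484 in PEox. Relative to these totals alone the sum was higher in every PEox library than in any vehicle library.

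The starts of the called genes are shown here because these genes moved in opposite directions within the same pathway. RefSeq promoters (GRCm38.p6) were found for 8 of the 9 genes, with 6 starts for Ogdh. Idh3a had no entry. Printed are the 250 bases before the start, 5′ to 3′ on the strand of the gene, for Cs (chr10:128337477-128337726, plus strand), the first Ogdh start (chr11:6291347-6291596, plus strand), Suclg1 (chr6:73248255-73248504, plus strand), Idh3g (chrX:73786898-73787147, minus strand) and Fh1 (chr1:175625636-175625885, minus strand). Capitals mark matches, on either strand, to any of 8 motifs.
Cs: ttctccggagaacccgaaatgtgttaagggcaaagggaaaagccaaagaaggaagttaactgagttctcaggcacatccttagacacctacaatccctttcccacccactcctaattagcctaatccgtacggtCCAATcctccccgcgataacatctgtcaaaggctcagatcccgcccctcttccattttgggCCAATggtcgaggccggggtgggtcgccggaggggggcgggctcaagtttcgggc
Ogdh: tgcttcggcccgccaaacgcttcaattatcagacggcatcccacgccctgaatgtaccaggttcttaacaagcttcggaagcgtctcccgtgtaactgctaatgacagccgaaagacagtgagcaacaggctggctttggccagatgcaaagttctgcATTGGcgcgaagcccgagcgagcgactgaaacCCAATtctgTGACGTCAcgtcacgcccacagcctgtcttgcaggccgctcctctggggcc
Suclg1: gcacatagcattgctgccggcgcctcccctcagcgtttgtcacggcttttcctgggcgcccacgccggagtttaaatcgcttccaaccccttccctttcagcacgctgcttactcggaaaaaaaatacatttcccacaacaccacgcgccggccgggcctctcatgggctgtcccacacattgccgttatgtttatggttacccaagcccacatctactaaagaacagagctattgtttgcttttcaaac
Idh3g: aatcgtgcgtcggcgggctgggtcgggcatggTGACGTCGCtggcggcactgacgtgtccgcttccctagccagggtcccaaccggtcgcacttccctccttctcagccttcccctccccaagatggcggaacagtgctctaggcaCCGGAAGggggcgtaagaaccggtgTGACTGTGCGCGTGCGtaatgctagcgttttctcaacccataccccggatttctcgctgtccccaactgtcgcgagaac
Fh1: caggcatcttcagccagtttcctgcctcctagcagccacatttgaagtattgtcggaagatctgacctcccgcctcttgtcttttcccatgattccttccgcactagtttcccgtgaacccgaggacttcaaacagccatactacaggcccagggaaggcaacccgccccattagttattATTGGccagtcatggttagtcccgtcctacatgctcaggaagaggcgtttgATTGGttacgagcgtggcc
The motifs were the CCAAT box (CCAAT), present in 33.8% of 32817 windows of this length, the NRF1 motif (GCGCNTGCG, 5.19%), the ETS motif (CCGGAAG, 6.9%), the E-box (CACGTG, 6.02%), the CRE-like motif (TGACGTC, 2.78%), the core of the antioxidant response element (TGACNNNGC, 10.2%), the ERR motif (CAAGGTCA, 1.33%) and the TATA box (TATAAA, 12.4%). Cs and Fh1, which moved in opposite directions, each had 2 CCAAT boxes and none of the other motifs. The printed Ogdh window held 2 CCAAT boxes and the CRE-like motif on both strands, where its matches overlap, and so did those of starts 2 and 3. Start 4 of Ogdh had 2 CCAAT boxes and an E-box, and starts 5 and 6 each had an NRF1 motif and an E-box, with neither CCAAT nor CRE-like matches. Idh3g held an NRF1 motif, an ETS motif, a CRE-like motif and 2 matches to the antioxidant core, of which 1 overlaps the CRE-like match and 1 overlaps the NRF1 match. Suclg1 held none of the 8. No window of the 13 member starts held a TATA box or an ERR motif. A match describes these letters alone.

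The changes were next set beside exon length, since in these libraries fold changes followed length across all genes. Tested genes were cut into 5 bins of equal size by exon length. In bin 1, the shortest (up to 1251 bp of exon), the median log2 fold change was -0.45 and 2.8% were called higher against 30% lower. In bin 4 (3271 to 4841 bp) the median was 0.26, with 31.9% higher and 10.7% lower. Ogdh, at 4449 bp, lay in bin 4, and its log2 fold change of 0.87 stood above the upper quartile of 0.66. Cs (2926 bp), Dlst (2764 bp), Fh1 (2636 bp) and Idh3a (2580 bp) lay in bin 3, where the median was 0.03 and the quartiles were -0.41 and 0.47. Idh3a stood below that lower quartile. Idh3b (1616 bp), Suclg1 (1519 bp), Mdh2 (1456 bp) and Idh3g (1331 bp) lay in bin 2, where the median was -0.18 and the quartiles were -0.59 and 0.22. Of these, Suclg1 stood just below the lower quartile and the rest within the quartiles. The part of exon length in these changes was tested only as far as the correction given next goes.

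**Figure D2:**
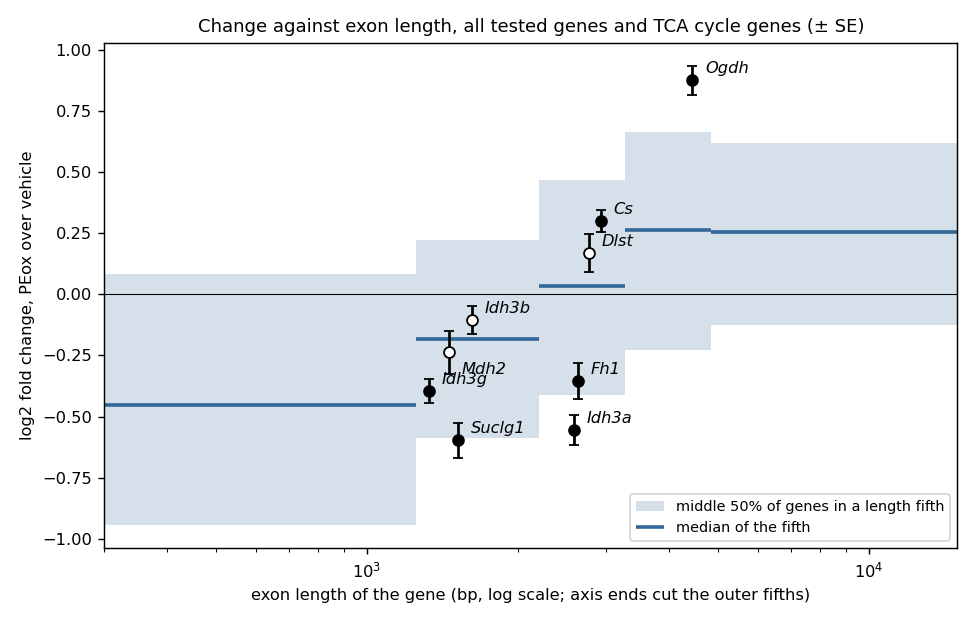
Log2 fold change (vertical axis, PEox over vehicle) against exon length in bp (horizontal, log scale): shading shows the middle 50% and blue lines the median of each of 5 length bins of all tested genes, and circles show the 9 TCA cycle genes with their SE, filled where the adjusted p is under 0.05. Ogdh lies above and Idh3a and Suclg1 lie below the shaded range of genes of like length.

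When the trend of each library on exon length and GC content was removed, Ogdh still rose (log2 fold change 0.70, edgeR adjusted p = 8.56e-05), as did Cs (0.27, adjusted p = 0.00205), and Idh3a (-0.57, adjusted p = 0.000302), Suclg1 (-0.39, adjusted p = 0.00252) and Fh1 (-0.36, adjusted p = 0.00789) still fell. Idh3g no longer passed, at -0.11 (edgeR adjusted p = 0.108), though it did when median transcript length replaced exon length (-0.25, edgeR adjusted p = 0.00359), and the values of Mdh2 and Idh3b turned to 0.05 and 0.11 without passing. With median transcript length Cs was at 0.15, less than with exon length, and still called (edgeR adjusted p = 0.0333). Under the exon length correction 32.4% of all tested genes were called, 16.1% higher and 16.3% lower. Scaling by library size alone moved the median of all genes to 0.14 and the calls from 3337 higher and 3438 lower to 4411 higher and 2715 lower, which is 39% of tested genes, 24.2% higher and 14.9% lower. Relative to that scaling Dlst rose (0.31, edgeR adjusted p = 0.0141), Fh1 fell short of the threshold (-0.22, edgeR adjusted p = 0.0501) and Idh3b turned to 0.03 (edgeR adjusted p = 0.722). The directions of Ogdh, Cs, Suclg1, Idh3a, Idh3g and Fh1 were alike under every alternative run.

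**Figure D3:**
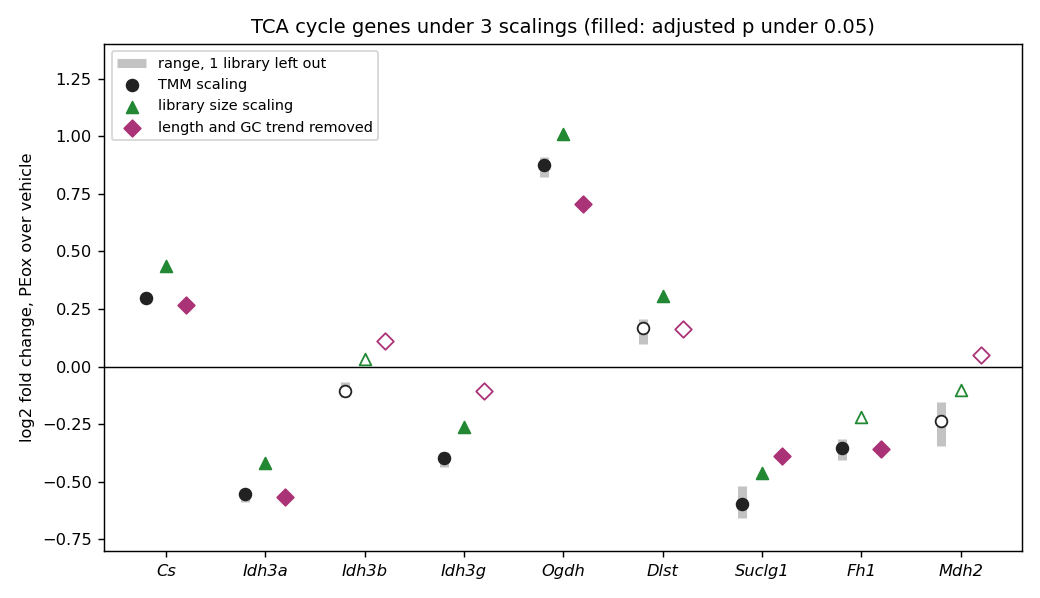
Log2 fold change of the 9 TCA cycle genes (vertical axis) with TMM scaling (circles), scaling by library size (triangles) and after removal of the length and GC trend (diamonds), filled where the adjusted p is under 0.05, with grey bars for the range of the TMM value when each library was left out. Ogdh, Cs, Idh3a and Suclg1 are filled under all 3, whereas Idh3b and Mdh2 cross 0 and are open throughout.

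Ratios of counts between partner genes were then taken within each library, which removes the scaling between libraries. With 3 libraries against 3 an exact two-sided permutation test cannot give a p below 0.1, so no ratio could pass, and 10 ratios were compared. Counts of Ogdh over Dlst, its partner in the same complex, were 1.643, 1.839 and 2.183 in vehicle and 3.26, 3.009 and 2.916 in PEox. The difference in log2 ratio was 0.71 (exact permutation p = 0.1, adjusted p = 0.143), and 0.54 after the length and GC correction. These ratios are not per length, and the exon lengths are 4449 bp for Ogdh and 2764 bp for Dlst. Dlst over Dld, the next partner, fell from 1.361 ± 0.061 in vehicle to 1.046 ± 0.134 in PEox (SD, n = 3, exact permutation p = 0.1), without overlap. Dlst is the lower term of the first ratio and the upper term of the second. Both Ogdh and Dld thus stood higher relative to Dlst in PEox.

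Among the isocitrate dehydrogenase subunits, Idh3a over Idh3b measured 0.705, 0.746 and 0.68 in vehicle and 0.498, 0.491 and 0.576 in PEox. The groups did not overlap (difference in log2 ratio -0.45, exact permutation p = 0.1, adjusted p = 0.143). Idh3b over Idh3g rose in every PEox library, from 0.594 ± 0.008 to 0.727 ± 0.019 (SD, n = 3, exact permutation p = 0.1). Idh3a over Idh3g overlapped between the groups, at 0.422 ± 0.017 and 0.379 ± 0.029 (SD, n = 3, exact permutation p = 0.2). Its log2 difference was -0.16, and -0.46 after trend removal. After trend removal the log2 differences were -0.68 for Idh3a over Idh3b and 0.22 for Idh3b over Idh3g.

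Suclg1 over Sucla2, the ADP-forming beta subunit, was 1.979, 2.061 and 2.133 in vehicle and 1.405, 1.719 and 1.378 in PEox, without overlap (difference in log2 ratio -0.46, exact permutation p = 0.1). The difference was -0.28 after the length and GC correction. Suclg1 over Suclg2, the GDP-forming beta subunit, overlapped between the groups, at 8.369 ± 1.106 and 9.379 ± 1.216 (SD, n = 3, exact permutation p = 0.4). Its log2 difference of 0.16 became 0.50 after trend removal (exact permutation p = 0.1), 0.050 without vehicle library 1 and 0.098 without PEox library 3. Suclg2 over Sucla2 was lower in every PEox library, at 0.248 ± 0.027 in vehicle and 0.164 ± 0.045 in PEox (SD, n = 3, exact permutation p = 0.1). Mdh2 over its cytosolic counterpart Mdh1 overlapped, at 0.869 ± 0.041 and 0.886 ± 0.094 (SD, n = 3, exact permutation p = 0.9), and its log2 difference of 0.02 turned negative when vehicle 1, PEox 1 or PEox 3 was left out, and was 0.23 after trend removal. Idh3a over Idh2, the NADP-dependent mitochondrial enzyme, was 1.946 ± 0.018 in vehicle and 2.351 ± 0.381 in PEox (SD, n = 3, exact permutation p = 0.1). That log2 difference, 0.26, was 0.020 after trend removal (exact permutation p = 0.8) and 0.14 without PEox library 3.

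**Figure D4:**
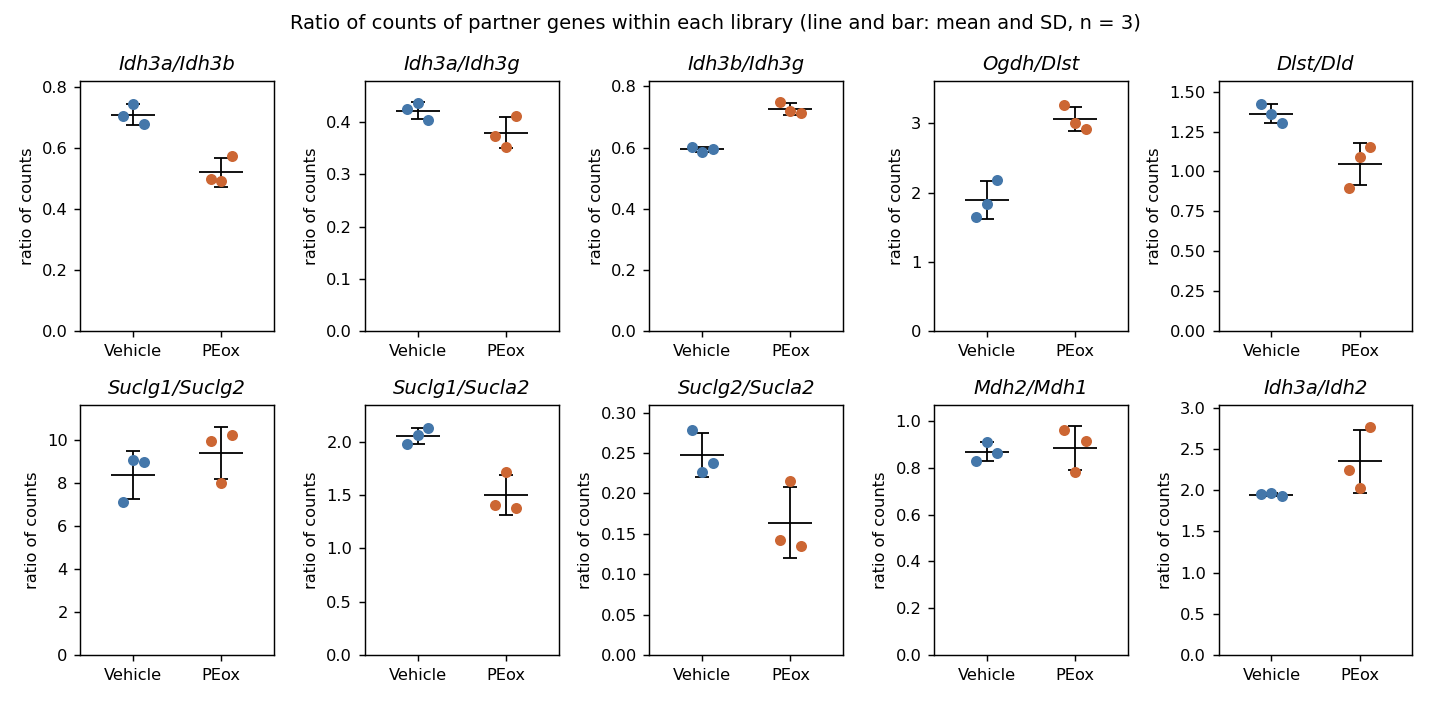
Ratio of counts of 10 pairs of partner genes (vertical axes, from 0) within each vehicle and PEox library (points), with the group mean (line) and SD (bar, n = 3). Ogdh/Dlst, Idh3b/Idh3g and Idh3a/Idh2 are higher and Idh3a/Idh3b, Dlst/Dld, Suclg1/Sucla2 and Suclg2/Sucla2 lower in every PEox library. Idh3a/Idh3g, Suclg1/Suclg2 and Mdh2/Mdh1 overlap.

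Other enzymes of the mitochondrial cycle, 8 genes, were also called in both directions, with 2 higher, 4 lower and 2 not passing, and a median log2 fold change of -0.15. Dld, shared by the 2-oxoglutarate and pyruvate complexes, rose from 69.80 ± 3.71 to 102.9 ± 9.33 CPM (SD over 3 libraries), a log2 change of 0.56 with SE 0.08 (adjusted p = 0.00101, edgeR). Idh2 fell from 61.95 ± 1.84 to 35.35 ± 4.15 CPM (SD over 3 libraries), a log2 change of -0.81 with SE 0.10 (adjusted p = 0.000406, edgeR). Suclg2 fell by 0.75 (edgeR adjusted p = 0.0106, and 0.0502 without vehicle library 1), whereas Sucla2 lay at -0.14 (edgeR adjusted p = 0.195), or at -0.21 and called lower without PEox library 1 (edgeR adjusted p = 0.0372).

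Succinate dehydrogenase, which is also respiratory complex II, had subunits on both sides. Sdhb, the iron-sulphur subunit, fell by 0.41 in log2 units (adjusted p = 0.0002, edgeR), and lay at -0.05 and not called after the length and GC correction. With median transcript length in that correction Sdhb lay at -0.35 and was called (edgeR adjusted p = 0.00043). Sdhc, a membrane anchor, fell by 0.16 (edgeR adjusted p = 0.0256), and was not called without vehicle library 1, 2 or 3 or PEox library 2 or with library size scaling (-0.03). Sdhd, the other anchor, rose by 0.20 (edgeR adjusted p = 0.0237, and up to 0.0828 without vehicle library 2 or 3 or PEox library 1), and by 0.49 after the length and GC correction. Sdha, the flavoprotein subunit, lay at -0.05 (edgeR adjusted p = 0.395), at 0.08 with library size scaling, and at 0.16 and called higher when the trend was removed with median transcript length (edgeR adjusted p = 0.0148).

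**Figure D5:**
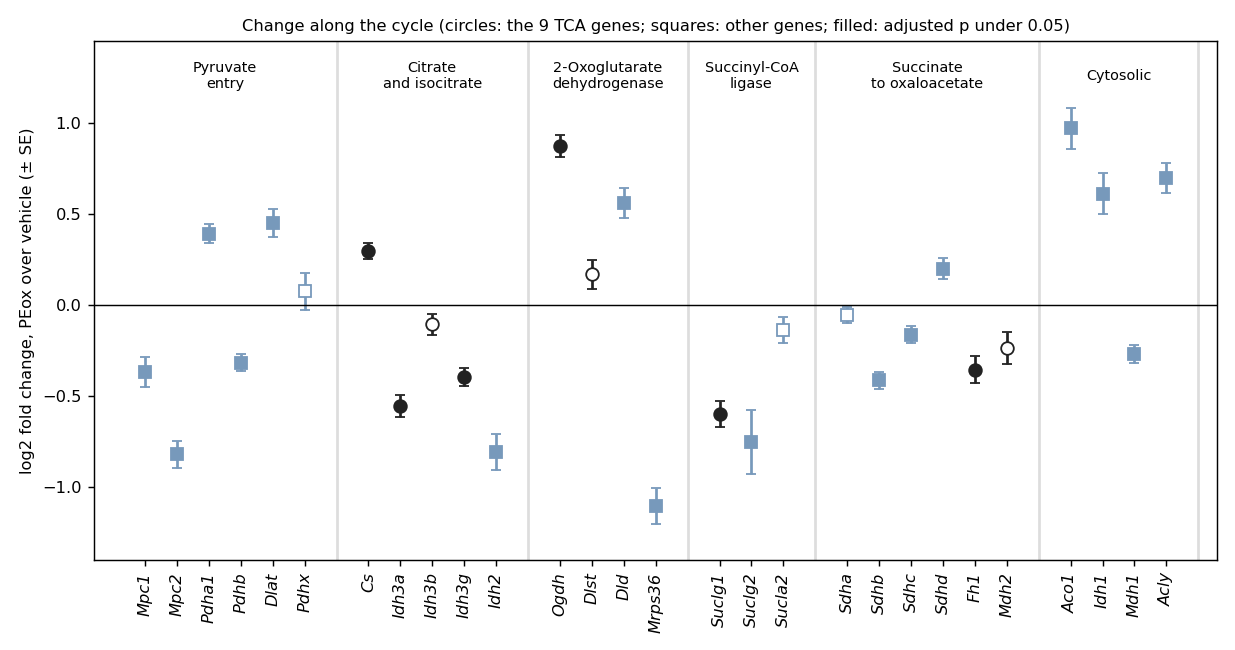
Log2 fold change with SE (vertical axis, PEox over vehicle) for the 9 TCA cycle genes (circles) and other genes of pyruvate entry, the cycle and its cytosolic counterparts (squares), in the order of the reactions and filled where the adjusted p is under 0.05. Ogdh and Dld lie above 0 and Mrps36 below it within the same complex, and Idh3a, Idh2, Suclg1 and Suclg2 lie below 0.

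Genes of pyruvate entry (6) gave 2 higher, 3 lower and 1 not passing. Mpc2 and Mpc1, the mitochondrial pyruvate carrier, fell by 0.82 (edgeR adjusted p = 7.81e-05) and by 0.37 (edgeR adjusted p = 0.00752), and Mpc1 lay at -0.16 and was not called after the length and GC correction (adjusted p = 0.148). With median transcript length Mpc1 lay at -0.24 and was just called (edgeR adjusted p = 0.0496). In the pyruvate dehydrogenase complex, Pdha1 and Dlat rose by 0.39 and 0.45 on the log2 scale (edgeR adjusted p = 0.000694 and 0.00196). Pdhb, the partner of Pdha1 in the decarboxylase, fell by 0.32 (edgeR adjusted p = 0.00104), or lay at -0.13 and was not called with the trend removed (adjusted p = 0.0601). Removed with median transcript length, the trend left Pdhb at -0.20 and called (edgeR adjusted p = 0.00983). Pdhx lay at 0.08 (edgeR adjusted p = 0.622). Of 7 kinases and phosphatases of this complex, Pdk3 alone was called, lower by a log2 fold change of -0.47 (edgeR adjusted p = 0.018), and that call was lost without vehicle library 1 or 2 (edgeR adjusted p up to 0.0811). Library size scaling gave 1 higher and 0 lower of these 7.

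The cytosolic counterparts (4 genes) were all called, 3 higher and 1 lower. Aco1, cytosolic aconitase and iron regulatory protein, rose from 32.66 ± 4.47 to 64.03 ± 3.85 CPM (SD over 3 libraries), a log2 change of 0.97 with SE 0.11 (adjusted p = 0.000306, edgeR). Acly, which splits cytosolic citrate, rose by 0.70 (edgeR adjusted p = 0.000286), and Idh1 rose by 0.61 from a low level of 14.20 ± 0.752 CPM (SD, n = 3, edgeR adjusted p = 0.00329). Mdh1 fell by 0.27 (edgeR adjusted p = 0.00363), and lay at -0.13 and was not called with library size scaling (edgeR adjusted p = 0.0637).

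Of 12 genes of anaplerosis and glutamine entry 11 were tested, and 4 rose, 1 fell and 6 did not pass. Me1, the cytosolic malic enzyme that yields NADPH, rose from 6.244 ± 1.70 to 27.95 ± 6.11 CPM (SD over 3 libraries), a log2 change of 2.16 with SE 0.25 (adjusted p = 0.000288, edgeR). Gpt2 rose by 1.22 (edgeR adjusted p = 0.00203) and Got1, the cytosolic aspartate aminotransferase, fell by 0.68 (edgeR adjusted p = 0.000524). Of 6 mitochondrial carriers of cycle acids, 3 fell, 0 rose and 3 did not pass, whereas library size scaling gave 3 higher and 1 lower. Slc25a10, the dicarboxylate carrier, fell by 0.77 (edgeR adjusted p = 0.00126), and Slc25a11, the 2-oxoglutarate carrier, fell by 0.25 (edgeR adjusted p = 0.0033) but lay at -0.02 after the length and GC correction. Slc25a13 was lower by a log2 fold change of -1.22 at a mean of 5.383 CPM in vehicle (edgeR adjusted p = 0.0479), and was not called without vehicle library 1, 2 or 3 or PEox library 1 or 3 (edgeR adjusted p up to 0.126).

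Among 8 genes of lipoate attachment and complex assembly, 4 fell, 0 rose and 4 did not pass, with 2 lower under library size scaling. The count includes Sdhaf4, at -0.39 (edgeR adjusted p = 0.0263), which was called in 2 of the 6 fits that leave out a library and lay at 0.021 after the length and GC correction. Mrps36, which encodes a small adaptor that ties Dld to the 2-oxoglutarate dehydrogenase core, fell from 53.8 ± 1.6 to 24.99 ± 2.58 CPM (SD over 3 libraries), a log2 change of -1.11 with SE 0.10 (adjusted p = 7.38e-05, edgeR), and by 0.68 with the trend removed. Sdhaf1, an assembly factor of succinate dehydrogenase, fell by 0.91 (edgeR adjusted p = 4.46e-05), and Sdhaf2 fell by 0.27 (edgeR adjusted p = 0.0142, and 0.0637 without vehicle library 1). Of 6 genes of 2-oxoglutarate and itaconate side reactions 4 were tested, and D2hgdh, which oxidises D-2-hydroxyglutarate to 2-oxoglutarate, rose by 1.22 (edgeR adjusted p = 0.000435) while the other 3 did not pass. Of 12 regulators of mitochondrial genes, 2 rose, 1 fell and 9 did not pass. Gabpa, an ETS factor of nuclear-encoded mitochondrial genes, rose by 0.97 (edgeR adjusted p = 0.00021), Myc fell by 0.87 (edgeR adjusted p = 0.000535), and Nrf1 rose by 0.40 (edgeR adjusted p = 0.0452), a call lost without vehicle library 1, 2 or 3 or PEox library 2 or 3 (edgeR adjusted p up to 0.142) and after the length and GC correction (0.18, adjusted p = 0.31).

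Nuclear genes with Nduf symbols, named for respiratory complex I, which takes up the NADH made by the cycle, are given for comparison. The name alone placed them in this list, Ndufa4 (log2 fold change -0.78) included, and mitochondrially encoded subunits are left out. Of 37 tested, 36 were called lower and 1 higher, with a median log2 fold change of -0.80, beside 4 lower and 2 higher of the 9 cycle genes and a median of -0.24. With the length and GC trend removed the complex I count was 29 lower and 1 higher at a median of -0.43, and the cycle genes gave 3 lower and 2 higher at a median of 0.05. Their median exon lengths were 983 bp and 2580 bp. Mitochondrial ribosomal proteins, taken by symbol and so including Mrps36, gave 64 lower and 1 higher of 77 at a median of -0.66, and 52 lower and 3 higher at a median of -0.41 after the correction. The difference between these groups of genes was not tested.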

How the data were processed

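RNA-seq of 3 vehicle and 3 PEox libraries was analysed from 1 table of raw counts per gene, whole numbers as deposited. Per the labels' protocols, reads were cleaned with fastp and aligned with HISAT2 2.0.5. Per the submitters' processing notes edgeR 3.22.5 was also used. The counter, genome build, annotation and strandedness are not given in the sources used here. No count column was left unused (0). Symbols came from a table that named 55141 identifiers. Groups followed the sample titles.

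Genes were kept by filterByExpr and scaled by TMM factors from 0.951 to 1.05. They were tested with edgeR 4.0.16 (robust quasi-likelihood, group as the single term) in R 4.3.3, and SE is the log2 fold change over the root of F. DESeq2 1.42.0, limma-voom (limma 3.58.1), other scalings and filters, a replicate block and left-out libraries were alternatives. The length and GC trend was removed per library by loess (span 0.5) on exon length from GENCODE M21, which covers 99.9% of tested genes; the counts may rest on other gene models. Ratios of raw counts were compared by exact permutation (scipy 1.17.1).

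Within each group the libraries were more different than sampling noise allows (chi-square per gene 16.5 to 38.2), and each was kept as 1 replicate. Among GENCODE transcripts, those of Csl and a pseudogene shared at least 85% identity with Cs, and their counts were at most 0.128% of those of Cs. A pseudogene like Mdh2 had 0 counts. Exons of Idh3b share 5 bases with Nop56 on the opposite strand. Tested on simulated data for this comparison (17506 genes), the fit recovered 48% of 100 genes with a log2 change of 1 and 79% of 100 with a log2 change of 2, and 5 of 17313 unchanged genes were called. The changed genes were drawn at random from all tested genes, many of low count. These shares therefore do not give the recovery to be had for the 9 cycle genes. Members, lists, named genes (the 9 genes, other cycle enzymes, their cytosolic counterparts and pyruvate entry in full, and up to 3 genes of smallest p in other lists) and tests were chosen with earlier results of these data known. Complex I and mitochondrial ribosomal genes were taken by symbol. For 1 gene of the planned lists the values are not reported here.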

Additional observations from a re-analysis of the deposited data

How the results depend on the processing

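Of 135 pairs of a cycle gene and an alternative, 123 kept direction and side of the threshold, 3 lost a call, 6 gained one and 3 turned sign without a call. The turns were Idh3b at 0.031 (library size scaling) and 0.11 (length and GC trend removed) and Mdh2 at 0.051 (trend removed). The trend was also removed with the median length of all transcripts of a gene, an alternative chosen after seeing the data, which left Fh1 at -0.23 (edgeR adjusted p = 0.0593), Dlst at 0.26 (adjusted p = 0.0309), Cs at 0.15 (adjusted p = 0.0333) and Idh3g at -0.25 (adjusted p = 0.00359). Leaving out each library gave 2 higher and 4 to 5 lower of the 9 genes and 5282 to 6577 called genes in all, where 6775 were called with all libraries. Of 981 pairs for 66 other pathway genes, 887 were alike, 55 lost and 22 gained a call. The 17 that turned were, with library size scaling, Sucla2 at 2.646e-05, Sdha at 0.083, Me2 at 0.0059, Got2 at 0.040 and Yy1 at 0.083. With the trend removed they were Pdhx at -0.057, Pdk1 at -0.12, Sdhaf4 at 0.021, Pprc1 at -0.020 and Tfam at -0.025, and with median transcript length Sdha at 0.16 (called higher, adjusted p = 0.0148), Pdhx at -0.053 and Pdp1 at -0.010. Leaving out each library gave ranges across 0 for Pdk1 (-0.041 to 0.145), Pdk2 (-0.0070 to 0.121), Ppargc1b (-0.065 to 0.537) and Yy1 (-0.089 to 0.0023). The log2 ratio difference of Mdh2 over Mdh1, 0.02 with all libraries, ran from -0.040 to 0.112 when each was left out. The causes were not tested. Whether replicate numbers pair the libraries could not be settled, since correlations of same-numbered deviations were small (-0.00583 to 0.0135). Vehicle libraries 1 and 2 correlated best with their own number and vehicle library 3 with another. The replicate block called 6159 genes and changed no call of the 9 cycle genes (6 called, 3 not), while Sdhc (edgeR adjusted p = 0.054), Sdhaf4 (0.0597) and Nrf1 (0.0557) lost theirs, and the paired log2 difference of Ogdh over Dlst was 0.71 (exact p = 0.25, the smallest possible with 3 pairs). The lowest count among the 9 genes was 3357.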
